A study of Sparassis latifolia with 18 samples.

Results

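The results below concern 2 of the 1100 genes in a deposited expression table of *Sparassis latifolia*, an edible mushroom that causes brown rot of conifer wood. EVM0006142 was annotated by the study with hemopexin repeats, and EVM0010191 was annotated as a protoglobin. Both were picked by these identifiers, and both came from the genes that the study listed as higher at all times of pine sawdust inducing (PSI) than in the control. Levels against the control were therefore part of the choice and are given here as a description. Levels among the treated times were compared with tests, with the limit that the genes were picked with earlier results of these data known.

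Hemopexin repeats are protein modules that fold into the blades of a propeller-shaped domain. In vertebrate blood plasma, hemopexin binds free heme, the iron-holding ring of hemoglobin, and carries it to the liver, and the same repeats occur in vertebrate matrix metalloproteinases and in proteins of plants and microbes. Protoglobins are single-domain heme proteins of the globin superfamily that were first described in archaea, where they bind oxygen, carbon monoxide and nitric oxide. What either protein does in *S. latifolia* is not known from the sources used here. The names rest on domain annotation alone.

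Strain SP-C was grown as mycelium in shaken liquid culture in all groups. All flasks were harvested together and filtered free of sawdust, and the groups differed in how long before the harvest sterilized fresh pine sawdust had been given. CK had 0 h of PSI, and the 5 treated groups had 1, 6, 24, 120 and 240 h and are named by that time in hours or days (1h, 6h, 1d, 5d and 10d). From every group 3 libraries of poly(A) RNA were made, which the methods call biological replicates. One strain in flask culture limits the groups as a model, since no second strain and no culture with another sawdust is among these libraries. The values are FPKM, which are fragment numbers scaled by transcript length and by library size, so that levels may be compared between genes. Read depth per gene cannot be had from them, and the spread between libraries alone sets the errors.

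The study left out 4 libraries after comparing the libraries with each other, namely CK-1 of the control and, of the treated ones, T-5d-2, T-1d-3 and T-1h-3. The main results rest on the 14 libraries kept, with 2 in CK, 1h, 1d and 5d and 3 in 6h and 10d. Libraries kept because they resemble each other have a smaller spread by construction. The tests of both genes are for this reason also given with all 18 libraries, and for EVM0006142 this changed the calls.

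EVM0006142 was low in CK and varied widely between the treated times. In CK its level was 7.0 FPKM in CK-1, 10.3 in CK-2 and 12.5 in CK-3. At 1h it was 101 FPKM in T-1h-1, 63.3 in T-1h-2 and 15.4 in the left-out T-1h-3. At 6h the 3 libraries lay close together, at 36.7, 36.6 and 35.3 FPKM. The libraries of 6h all lay above those of CK, and the left-out library of 1h lay below those of 6h.

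At 1d the level of the hemopexin gene was 151 FPKM in T-1d-1, 108 in T-1d-2 and 10.1 in the left-out T-1d-3. At 5d it was 90.7 FPKM in T-5d-1, 96.0 in T-5d-3 and 5.32 in the left-out T-5d-2, the lowest of the 18 libraries. At 10d it was 18.3, 26.0 and 19.4 FPKM, so the 3 libraries of 10d lay below every library of 6h and above every library of CK. Of the 15 treated libraries, 13 lay above the highest CK library, and the exceptions were T-1d-3 and T-5d-2.

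EVM0010191 was higher than EVM0006142 in 17 of the 18 libraries, and its 15 treated libraries spanned a 2.03-fold range. In CK the protoglobin gene was at 47.4 FPKM in CK-1, 76.7 in CK-2 and 63.1 in CK-3. At 1h it was at 142 and 214 FPKM in the kept libraries and at 236 in the left-out T-1h-3, the highest of all 18. The 1h group thus held both the widest range of this gene and its top value.

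From 6h on, the protoglobin gene stayed in a narrow band. Its level was 134, 119 and 130 FPKM at 6h. For 1d it was 121 and 150 in the kept libraries and 116 in the left-out T-1d-3. At 5d it was 127 and 151 FPKM in the kept libraries and 143 in the left-out T-5d-2, and at 10d it was 136, 117 and 143. The groups 6h, 1d, 5d and 10d overlapped with each other, while all 15 treated libraries lay above the highest CK library.

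**Figure D1:**
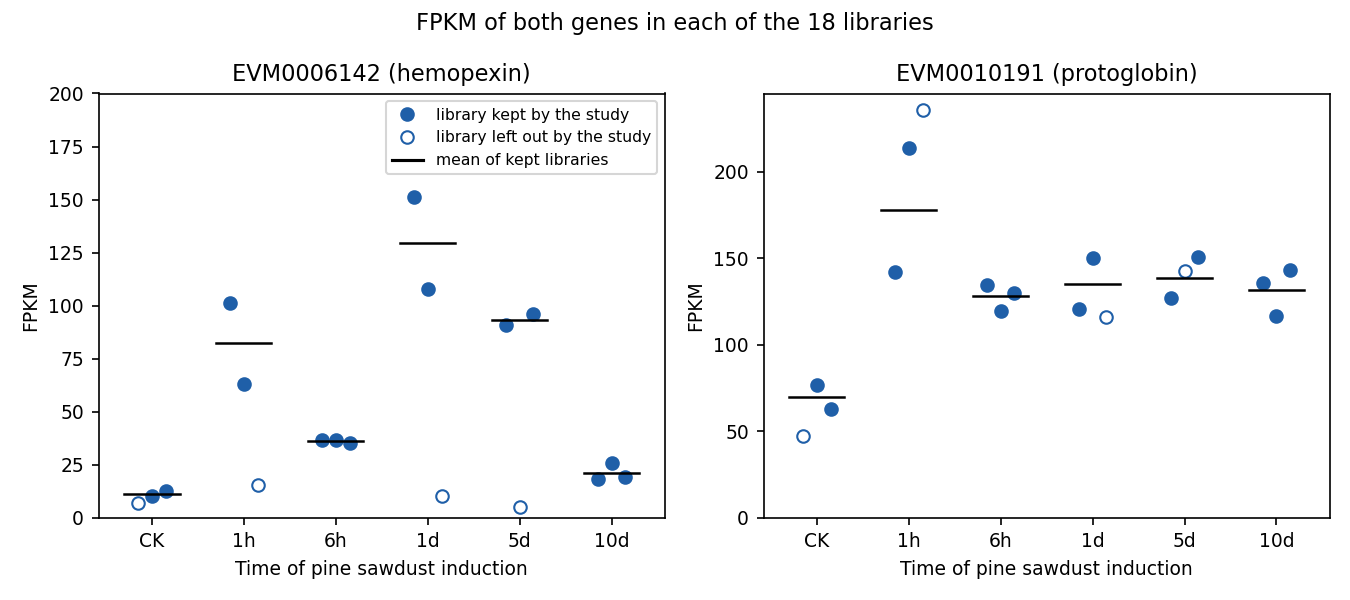
Level of both genes in FPKM (vertical axis, each panel with its own scale from 0) in CK and at the 5 times of PSI (horizontal axis), with 1 point for each of 18 libraries; open points are the 4 libraries left out by the study, and lines are means of the kept libraries. The treated open points of the hemopexin gene lie at 15.4, 10.1 and 5.32 FPKM, far below the filled points of the same time, while those of the protoglobin gene at 1d and 5d lie among or next to theirs.

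In the kept libraries the mean level of the hemopexin gene was 11.4 ± 1.6 FPKM (SD, n = 2) in CK and 82.3 ± 26.9 (n = 2) at 1h. It was 36.2 ± 0.811 (n = 3) at 6h and 129.5 ± 30.4 (n = 2) at 1d. Later it was 93.4 ± 3.77 (n = 2) at 5d and 21.2 ± 4.14 (n = 3) at 10d. Over time the mean level had a high value at 1h, a lower one at 6h, its highest at 1d and 5d, and its lowest treated value at 10d. The means from 1h to 10d were 7.24, 3.18, 11.4, 8.21 and 1.87 times that of CK. With all 18 libraries the ratios to CK were 6.05, 3.65, 9.05, 6.46 and 2.14, and the SD of 3 libraries reached 72.2 FPKM at 1d around a mean of 89.7.

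For the protoglobin gene the mean level was 69.9 ± 9.65 FPKM (SD, n = 2) in CK and 178 ± 50.5 (n = 2) at 1h. It was 128 ± 7.77 (n = 3) at 6h, 135 ± 20.8 (n = 2) at 1d, 139 ± 16.6 (n = 2) at 5d and 132 ± 13.5 (n = 3) at 10d. Apart from the wide 1h group, the treated means lay between 128 and 139 FPKM. The ratios to CK were 2.54, 1.83, 1.93, 1.99 and 1.89, and with all 18 libraries, where the low CK-1 entered, they were 3.16, 2.05, 2.06, 2.25 and 2.11. For its list the study required a fold over 2 in its own test. In the FPKM of the kept libraries, the protoglobin ratios from 6h on and the hemopexin ratio at 10d (1.87) lay under 2. The cause of this difference was not tested. Of the genes tested, 9.28% had every kept treated library above every kept CK library, as both genes did, and 4.48% had this with all 18 libraries, as the protoglobin gene did. Since the genes were picked for this contrast, nothing is read from these counts. More mycelium that uses a gene and more RNA per cell cannot be told apart in such bulk libraries.

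The next comparison asked whether either gene differed between the times of PSI. Levels were set on the scale log2(FPKM + 1), where a difference of 1 is a change of about 2-fold, and fitted with limma over all genes that passed a filter on low values. Both genes passed it. A gene was called at a time pair when the Benjamini-Hochberg adjusted p was under 0.01 and the fold over 2. All differences below are on this log2 scale, which slightly understates changes of low levels.

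In the kept libraries EVM0006142 varied among the 5 treated times with an adjusted p of 9.33e-08 in limma's moderated F test. In the same test 87.4% of the genes passed, so passing it sets no gene apart. The rule that chose the 1100 genes of the table is not given. Shares and medians over all genes therefore describe this table and not all genes of the fungus. With all 18 libraries its adjusted p was 0.72, while 76.8% of genes still passed. For EVM0010191 the adjusted p was 0.129 with the kept libraries and 0.0421 with all 18, neither under 0.01. The protoglobin gene was hence among the minority of this table's genes that did not pass with either set.

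From one time to the next, the hemopexin gene fell at 6h, rose at 1d, did not pass the test at 5d and fell at 10d. The difference of 6h from 1h was -1.12 (SE 0.19, limma adjusted p = 2.14e-04), and in this pair 7.54% of genes were called lower. Without T-1h-1 this difference was -0.79, under the fold threshold, and the call was lost. Of 1d from 6h it was 1.79 (SE 0.19, adjusted p = 2.99e-06 in limma), with 5.24% of genes called higher. Between 5d and 1d the gene was not called, with a difference of -0.45 and a 95% interval from -0.91 to 0.01, which leaves room for a fall of nearly 2-fold or none. The difference of 10d from 5d was -2.10 (SE 0.19, limma adjusted p = 2.05e-06), a 4.29-fold lower value, with 7.44% of genes called lower. The median over all genes was -0.13 in this last pair. Under quantile normalization the share of higher genes among those called went from 61.9% to 46.9% for 6h against 1h, from 23.8% to 47% for 1d against 6h and from 28.3% to 40% for 10d against 5d, while all 3 calls of the hemopexin gene stood, at -1.23, 2.21 and -1.88.

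Of the 10 pairs of treated times, 6 were called for the hemopexin gene with the kept libraries. Besides the 3 steps above, these were 10d against 1h (-1.88) with 30.6% of genes called lower, 5d against 6h (1.34) with 7.63% called higher, and 10d against 1d (-2.55) with 19.5% called lower. The last of these was a 5.86-fold lower value at 10d. In the order of its levels, 1d, 5d, 1h, 6h and 10d, the neighbours 1d and 5d, and 5d and 1h, did not pass the test. The neighbours 6h and 10d differed by 1.69-fold, under the fold threshold, at a limma adjusted p of 0.00121.

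With all 18 libraries none of the 10 pairs was called for the hemopexin gene. Its SE rose from 0.19 to 1.00, its limma adjusted p ran from 0.241 to 0.979, and the same steps were -0.36, 0.61, -0.57 and -0.80. All 4 had the direction seen with the kept libraries. The interval of 10d against 5d ran from -2.93 to 1.33. The fall and rise of this gene between times was thus a result of the 14 kept libraries only. Over all genes, 113 were called between 10d and 5d with the kept libraries and 5 with all 18.

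None of the 10 pairs was called for EVM0010191 with either set of libraries, where the share of genes called per pair ran from 10.4% to 49.4% with the kept libraries and from 0.457% to 43.7% with all 18. Its lowest difference in the kept libraries was 6h against 1h, at -0.44 with a 95% interval from -0.79 to -0.10 and a limma adjusted p of 0.0303. This value rests on the 2 kept libraries of 1h, since it was -0.15 without T-1h-2 and -0.74 without T-1h-1. The highest was 0.11, of 5d against 6h. Between 10d and 5d the protoglobin gene differed by -0.07, with a 95% interval from -0.42 to 0.27. An interval of this width holds no 2-fold change, yet it does not show that the levels were the same. With all 18 libraries the values at 6h, 1d and 10d lay 0.59, 0.59 and 0.55 below that at 1h, with limma adjusted p of 0.0223, 0.0187 and 0.0182.

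**Figure D2:**
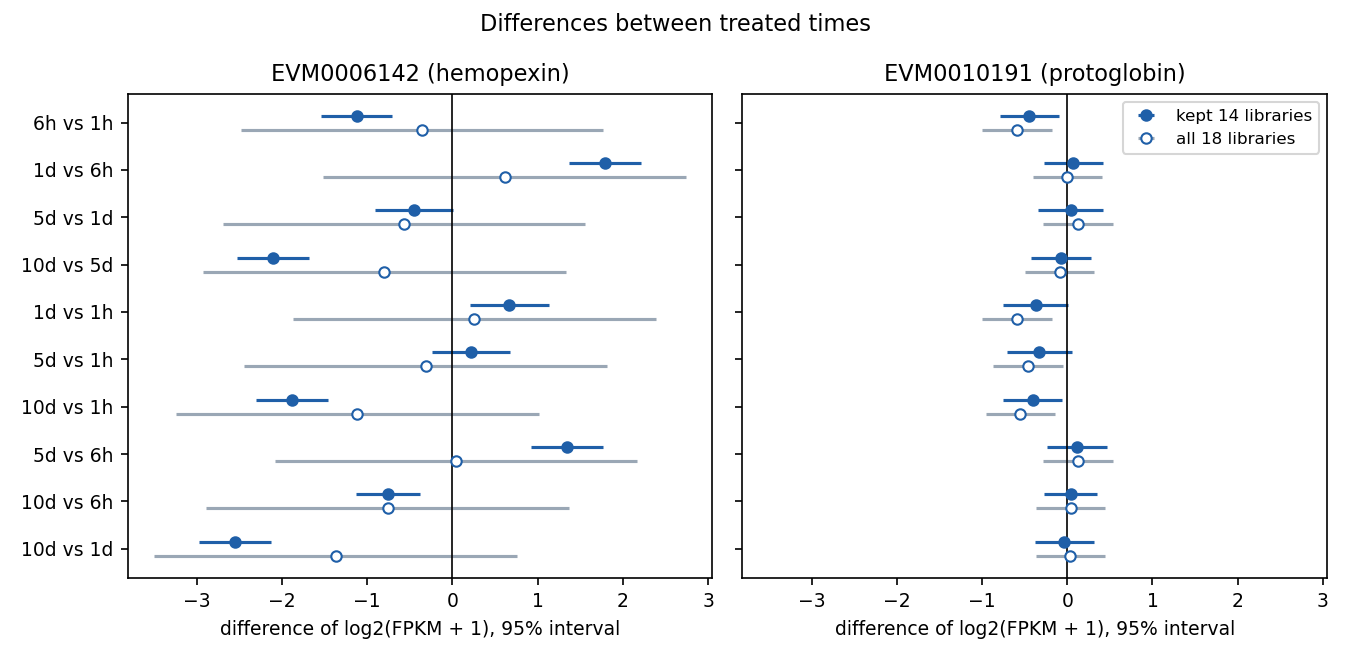
Difference of log2(FPKM + 1) between each of the 10 pairs of treated times (rows; first time minus second), with the 95% interval of the limma fit as bars, for the 14 kept libraries (filled) and all 18 (open). For the hemopexin gene the bars of the kept libraries lie clear of 0 in most pairs, and every open bar crosses 0, while all points of the protoglobin gene lie between -0.59 and 0.13.

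An exact permutation test, which moves the treated libraries between the times in all possible ways, was run on single values. With the 12 kept treated libraries (2 or 3 per time), the level of the hemopexin gene differed among times at an exact adjusted p of 8.66e-05 over 3 such tests. The level of the protoglobin gene had an exact adjusted p of 0.275. With all 15 treated libraries these values were 0.856 and 0.146 in the exact test.

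The level of hemopexin relative to protoglobin within each library was the last value tested this way, as the difference of their log2(FPKM + 1). The plain FPKM ratio, which is printed here, does not depend on a scaling factor per library. The tested difference does so slightly, through the added 1. In CK the ratio lay between 0.134 and 0.198, so the hemopexin gene stood at a small part of the protoglobin level. It was 0.713 and 0.296 in the kept libraries of 1h and from 0.271 to 0.307 at 6h. The kept libraries of 1d had ratios of 1.25 and 0.721, those of 5d 0.713 and 0.638, and those of 10d from 0.135 to 0.222. T-1d-1 was the single library with more hemopexin than protoglobin transcript, and the ratios of 10d overlapped with those of CK. In the left-out libraries of 1h, 1d and 5d the ratio was 0.0654, 0.0868 and 0.0372, lower than in any CK library. On the log2 scale the ratio differed among times with the 12 kept libraries at an exact adjusted p of 0.00562, and of 0.0123 under quantile normalization. With all 15 the exact adjusted p was 0.856.

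Both genes were higher after PSI than in CK in the kept libraries, by the way they were picked. Among treated libraries no correlation between them passed a test. Over the 15 treated libraries, which share times and the scaling of the table, Pearson's r of their levels on the log2 scale was -0.03 (permutation p = 0.913) and Spearman's rho 0.075 (permutation p = 0.793). Without T-5d-2 and T-1d-1, the libraries farthest from the median of the hemopexin gene, r was 0.07. With the 12 kept libraries r was 0.16 (permutation p = 0.666). After each time's mean was taken off, r was -0.19 over 15 libraries (exact permutation p = 0.574). Over the 4 relations computed, every adjusted permutation p was 0.913.

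The 3 treated libraries that the study left out had far less of the hemopexin transcript than the kept libraries of their time, while the protoglobin transcript was 1.33-fold higher in T-1h-3, 1.17-fold lower in T-1d-3 and 1.03-fold higher in T-5d-2. Relative to the mean of the kept libraries of the same time, EVM0006142 was 5.34-fold lower in T-1h-3, 12.9-fold lower in T-1d-3 and 17.6-fold lower in T-5d-2. On the log2 scale these differences were -2.30, -3.54 and -3.90, the 2nd, 2nd and 3rd lowest of 1093 genes. The medians over all genes in the same libraries were -0.06, 0.06 and -0.01. In CK-1 the difference was -0.62, ranked 209th from the lowest of the 1093 genes.

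For EVM0010191 the differences of the left-out libraries were 0.43 in T-1h-3, -0.21 in T-1d-3, 0.05 in T-5d-2 and -0.55 in CK-1. Across all 1093 genes, 9 were more than 2-fold lower in each of the 3 left-out treated libraries and 0 were more than 2-fold higher in each. More than 4-fold lower in each were 2 genes, EVM0006142 and EVM0006417. Annotation was looked up only for the gene lists described below, and EVM0006417 is not on them. EVM0006417 and the 7 others, EVM0008980, EVM0000218, EVM0008528, EVM0007758, EVM0003837, EVM0009129 and Sparassis_latifolia_newGene_1753, were named after their values were seen. In the left-out control CK-1, 7 of the 9 were also more than 2-fold lower than in the kept CK libraries, by -1.16 to -2.80 on the log2 scale, and the exceptions were EVM0006142 (-0.62) and EVM0003837 (-0.60). EVM0006142 was the only one of the 9 on the study's list of genes higher at all times. The listed genes EVM0009236, EVM0006776, EVM0007948, EVM0001276, EVM0001348, EVM0005092 and EVM0008715 were also lower in each left-out treated library, by less than EVM0006142. At 1h, 1d and 5d the differences were -0.83, -1.55 and -1.50 for EVM0009236 and -0.17, -0.61 and -0.19 for EVM0001348. EVM0000788 was higher in each (0.50, 0.81 and 1.36), and EVM0008017 and the protoglobin gene had both signs. The listed genes were named here after their values were seen. What set the left-out libraries apart was not tested.

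**Figure D3:**
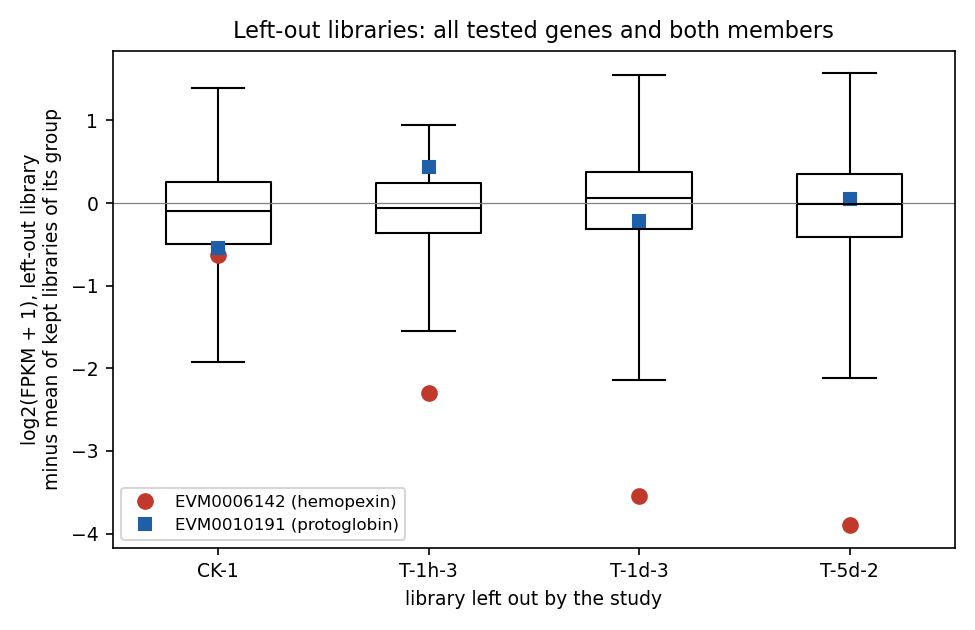
Difference of log2(FPKM + 1) between each library left out by the study and the mean of the kept libraries of its group (vertical axis), for the 4 left-out libraries (horizontal axis). Boxes run from the lower to the upper quartile of the 1093 genes with a line at the median and whiskers at the 1st and 99th percentile; the hemopexin gene (circles) lies below the whiskers in the treated libraries T-5d-2 (-3.90), T-1d-3 (-3.54) and T-1h-3 (-2.30), and the protoglobin gene (squares) lies within the whiskers in all 4.

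The spread of both genes within groups was set beside that of all genes. With the kept libraries, the SD of the hemopexin gene within groups was 0.253 on the log2 scale, and that of the protoglobin gene 0.209, where the median gene had 0.148. With all 18 libraries, the SD of the hemopexin gene was 1.38, the 3rd highest of 1093 genes, and that of the protoglobin gene was 0.242, below the median of 0.258. Both genes thus lay above the median spread with the kept libraries, and only the hemopexin gene did with all 18. Over the 18 libraries the coefficient of variation of EVM0006142 ranked 34th from the highest of 1100 genes, and that of EVM0010191 ranked 938th.

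The genes whose levels over the 18 libraries were most like those of each gene were then looked up, by Pearson's r on the log2 scale as a description. EVM0000218 (r = 0.92) and EVM0003837 (r = 0.91) were the only genes with an r of at least 0.9 to the hemopexin gene. Next were EVM0010568 (0.79), EVM0007739 (0.79) and EVM0008980 (0.78), and the lowest r were those of EVM0002398 (-0.77) and Sparassis_latifolia_newGene_653 (-0.70). None of them is on the gene lists described below, and annotation was not looked up outside those lists. With the 14 kept libraries 2 of these 5 were again among the first 5, EVM0000218 at r = 0.88 and EVM0003837 at r = 0.89.

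EVM0000218 was, like the hemopexin gene, low in the left-out treated libraries, and its lowest library was CK-1 at 13.3 FPKM. Its level was 40.8 and 47.0 FPKM in the kept CK libraries and 668 and 510 in the kept libraries of 1d, against 59.3 in T-1d-3. At 5d it was 426 and 397 FPKM in the kept libraries against 15.7 in T-5d-2. It differed from the hemopexin gene in that its 6h libraries, at 387, 409 and 423 FPKM, lay close to those of 1h at 409 and 301. At 10d it was 50.7, 62.2 and 51.6 FPKM, all slightly above its kept CK libraries.

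EVM0003837 moved over a narrower range. Its level was 24.03 and 24.65 FPKM in the kept CK libraries, 68.1 and 52.3 in those of 1h and 69.3 and 44.3 in those of 1d. In the left-out libraries of 1h, 1d and 5d it was at 27.5, 19.1 and 18.8 FPKM, and at 10d at 21.5, 19.9 and 20.1. Unlike the hemopexin gene, its 10d libraries all lay below both kept CK libraries.

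To the protoglobin gene, EVM0010488 (r = 0.85), EVM0000905 (0.84), EVM0003819 (0.83), EVM0005028 (0.80) and EVM0011245 (0.79) were most alike over the 18 libraries, and Sparassis_latifolia_newGene_679 (-0.85) and EVM0004235 (-0.83) least. With the kept libraries 3 of these 5 were again among the first 5. EVM0010488, with the highest r, was between 54.1 and 60.7 FPKM in the 3 CK libraries, at 160, 169 and 203 in those of 1h and between 70.2 and 122.7 in all later ones. As with the protoglobin gene, T-1h-3 was its highest library. EVM0004235 ran the other way, from 749 to 805 FPKM in CK and 231, 198 and 153 at 1h. The protoglobin gene ranked 90th in likeness to the hemopexin gene (r = 0.42), and the hemopexin gene 140th in likeness to the protoglobin gene.

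**Figure D4:**
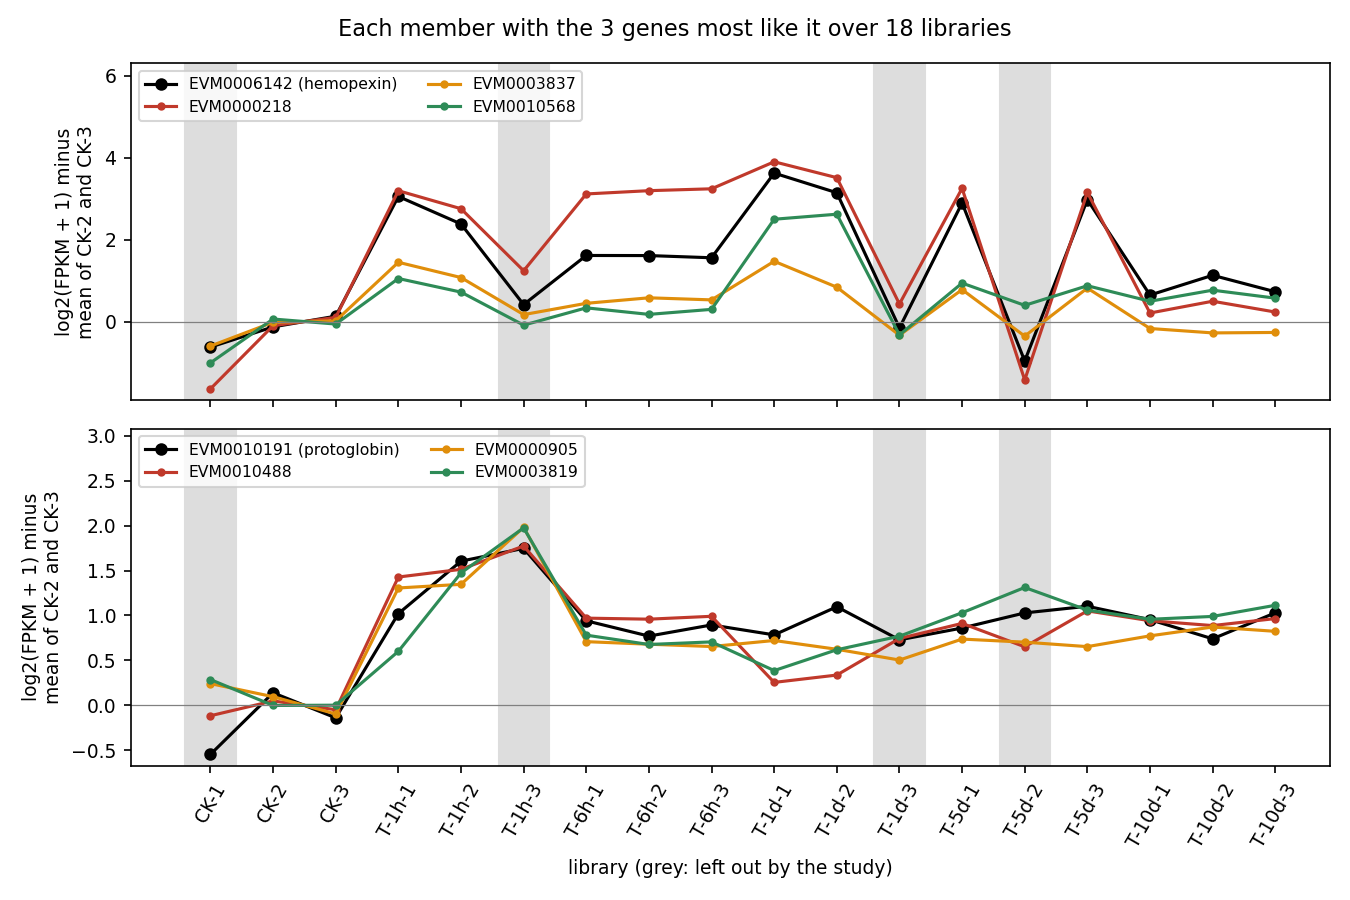
Level of each of the 2 genes (black) and of the 3 genes most like it (colours) in each of the 18 libraries (horizontal axis), as log2(FPKM + 1) minus the mean of CK-2 and CK-3 (vertical axis, each panel with its own scale); grey bands mark the 4 libraries left out by the study. The hemopexin gene and EVM0000218 (r = 0.92) both drop in the grey bands of 1d and 5d, and the protoglobin gene and its 3 neighbours have their highest values in T-1h-3.

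Both genes come from the common genes of the study, listed as higher at every time than in CK. Of 17 listed genes, 11 are in the deposited table. A list chosen on these libraries is not independent evidence of a direction, and its counts among treated times are given to place both genes. Between 10d and 5d, 0 of the 11 were called higher and 1 lower with the kept libraries, where 2.94% of all genes were called higher and 7.44% lower. The one called lower was the hemopexin gene itself, and the median of the list was -0.32 against -0.13 over all genes. With all 18 libraries 0 were called in either direction, with 0.183% of all genes higher and 0.274% lower, and the median of the list, at -0.09, lay above that of all genes, at -0.15.

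With the kept libraries, the list members with the largest differences of 10d from 5d were EVM0000788 (0.93), a GMC oxidoreductase, EVM0008017 (0.48), an FAD-dependent monooxygenase, and EVM0001348 (0.30), without a named domain. GMC oxidoreductases are flavin enzymes that oxidize alcohols and sugars, and in brown-rot fungi some of them yield hydrogen peroxide. The smallest were EVM0006142 (-2.10), EVM0006776 (-0.89), with a TEA/ATTS transcription factor domain, and EVM0001276 (-0.74), without a named domain. None of these passed the fold threshold but EVM0006142, and with all 18 libraries none was called, with EVM0000788 at 0.48. At 5d against 1d, 0 of the 11 were called higher and 1 lower with both sets of libraries, where 8.36% of genes were called lower with the kept libraries and 5.31% with all 18. That gene was EVM0008715 (-1.63 with the kept libraries), without a named domain.

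Heme proteins were grouped here from the domain names in the study's annotation. Of 4 such genes 2 are in the table, the protoglobin gene and EVM0011998, a catalase. Catalase holds heme and breaks down hydrogen peroxide. Its mean level in the kept libraries was 15.2 ± 0.818 FPKM (SD, n = 2) in CK, 7.13 ± 0.0836 (n = 2) at 1h and 9.06 ± 1.27 (n = 3) at 6h. It was 11.7 ± 0.474 (n = 2) at 1d, 23.2 ± 0.453 (n = 2) at 5d and 29.3 ± 1.63 (n = 3) at 10d. The catalase gene thus lay below CK up to 1d and above it later, while the protoglobin gene lay above CK throughout. At 5d against 6h the catalase gene rose by 1.27 (SE 0.11, limma adjusted p = 3.55e-07) with the kept libraries and by 1.54 with all 18, where the protoglobin gene differed by 0.11 and 0.13. At 5d against 1d its difference was 0.93 with the kept libraries, under the fold threshold, and 1.10 with all 18, where it was called (limma adjusted p = 3.05e-04). The paper took the catalase gene from a module, a set of genes with like courses, that it chose for correlation with PSI time. That choice used genes changed at 10d in these libraries, so a late change was part of it and these tests are no independent evidence.

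Enzymes of families that use molecular oxygen were likewise grouped here from genes the study names. The GMC oxidoreductases among them were placed there by domain name alone, and whether they use oxygen is not known from the sources used here. Of 13 such genes, 11 are in the table. At 5d against 1d, 6 of the 11 were called higher and 0 lower with the kept libraries, where 11.5% of all genes were called higher, and 4 were called higher with all 18, where 8.05% were. Neither the hemopexin nor the protoglobin gene was called in this pair. Between 10d and 5d, 2 were called higher and 1 lower with the kept libraries and 1 higher, EVM0010522, and 0 lower with all 18. Over all genes 2.94% were called higher and 7.44% lower with the kept libraries, and 0.183% and 0.274% with all 18. With the kept libraries the largest rises there were those of EVM0000309 (1.29), a homogentisate dioxygenase of the breakdown of tyrosine, and EVM0010522 (1.05), a GMC oxidoreductase. With all 18 these differences were 1.04, which was not called (limma adjusted p = 0.0738), and 1.06. The lowest differences were those of EVM0007103 (-1.38), a flavin monooxygenase, which was called, and EVM0008301 (-0.94), a TauD dioxygenase, which was not. Since these enzymes were named by the study on these libraries, their counts are no independent evidence either.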

How the data were processed

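RNA of 18 mycelium libraries was sequenced, with 3 libraries in each of 6 groups taken from the sample titles. The deposited table holds FPKM values calculated by the authors, which were used without change. FPKM as the unit comes from the paper, since no unit stands in the header. According to the methods, cleaned reads were mapped with HISAT2 and assembled with StringTie, while Bowtie 0.12.2 is a further tool in the submitters' processing notes. The methods also name the removal of duplicated reads and the quantification of expression with STAR-RSEM. No genome build is given in the sources used here, and the same holds for the rule by which the 1100 genes of the table were chosen. Low FPKM values were not whole multiples of a common step, so read numbers per gene are unknown and no count test was run. With 0 of 1100 identifiers matched in the reference gene table, no sequence or coordinate is printed.

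Values were set on log2(FPKM + 1). Genes with at least 1 FPKM in at least 2 libraries entered, which were 1088 genes for the 14 libraries kept by the study and 1093 for all 18. A single linear model over the 6 groups was fitted in R 4.3.3 with limma 3.58.1 and its trend option, and groups of 2 libraries took their error from the spread pooled over groups. The prior of limma added 4.69 degrees of freedom with the kept libraries and 3.31 with all 18. p-values were adjusted with the Benjamini-Hochberg method over all genes within each pair of times. The threshold was an adjusted p of 0.01 with a fold of 2 for pairs, an adjusted p of 0.01 for the F test and of 0.05 for the permutation tests. The scripts were tested on simulated data. Exact permutation tests counted arrangements with at least the observed sum of squares between times, which has no direction, and covered 3 values. Correlations used 100000 permutations and were 2-sided. Python 3.11.15, scipy 1.17.1 and matplotlib 3.10.9 made the other values and the figures.

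Named genes were both genes, the 5 genes most and the 2 least like each of them over 18 libraries, every listed heme protein in the table, the 3 listed common genes at each end of the difference of 10d from 5d, and the 2 oxygen-using enzymes at each end. The genes and lists were chosen with earlier results of these data known. Genes named outside this rule are said to be so or are single genes behind a count. Alternatives were all 18 libraries, each left-out library added back (chosen after seeing the data), no filter on low values, quantile normalization, a model of the compared groups alone, the replicate number as a block, a pseudocount of 0.1, changed thresholds, and the removal of 1 library at a time. Tissue markers were not checked, since the identifiers of the table carry no gene names.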

Additional observations from a re-analysis of the deposited data

How the results depend on the processing

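Of 294 alternative values computed for the hemopexin gene among treated times, 266 stayed on their side of the threshold, 26 lost the call and 2 gained one, and of 294 for the protoglobin gene 293 stayed and 1 gained a call. No called difference changed its sign, and some that were not called did. The calls of the hemopexin gene were lost with treated left-out libraries added and, for 6h against 1h, without T-1h-1. With T-1h-3 alone added, 10d against 5d, 10d against 1d and the F test still passed. With CK-1 alone added no call was lost. For 6h against 1h the difference was -0.36 with all 18 libraries or with T-1h-3 added, and with T-1d-3 or T-5d-2 added it stayed at -1.12 with a wider spread (limma adjusted p = 0.257 and 0.298). For 1d against 6h it was 0.61 with all 18 libraries or with T-1d-3 added and 1.79 with T-1h-3 or T-5d-2 added (limma adjusted p = 0.0108 and 0.103). For 10d against 5d it was -0.80 with all 18 libraries or with T-5d-2 added and -2.10 with T-1d-3 added (limma adjusted p = 0.0511). The adjusted p of the limma F test was 0.72 with all 18 libraries, 0.0981 with T-1d-3 and 0.0785 with T-5d-2 added. The exact permutation adjusted p of the hemopexin level and of the ratio was 0.856 for both with 15 libraries, 0.0778 for both with T-1h-3, 0.332 for both with T-1d-3 and 0.318 for both with T-5d-2 added. For the protoglobin level it was 0.0472 under quantile normalization. Quantile normalization moved the median of all genes by between -0.08 and 0.46, the most for 10d against CK. Relative to that median, the hemopexin gene was 1.28 higher at 10d than in CK on both scales, and the protoglobin gene 1.35 on the main scale and 0.79 under quantile normalization. With 1 kept library left out at a time, 6h against 1h ran from -1.46 to -0.79 for the hemopexin gene. The limma F test of the protoglobin gene ran from an adjusted p of 0.00874, without T-1h-1, to 0.834, without T-1h-2. The replicate numbers gave no sign of pairing. The deviations from group means of libraries with the same number correlated at a mean of -0.003, over 0.1 in 3 of 26 pairs. In groups with 2 kept libraries these deviations mirror each other, so the check does not settle whether the libraries are paired. As a replicate block the numbers changed no call of either gene, with a difference of 10d from 5d of -2.06 for the hemopexin gene. Between 10d and 5d the number of genes called was 113, against 5 with all 18 libraries, 27 with T-5d-2 added, 75 under quantile normalization and 398 with no fold threshold. The cause of these differences was not tested. With 2 or 3 libraries a group, the spread is known with low precision.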
